A study of Tribolium castaneum with 183 samples.

Results

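The 100 genes described here were those whose mean RNA level fell most under heat at both humidities in whole females of the red flour beetle *Tribolium castaneum*. For every gene, cpm (counts relative to a library's total) were scaled between females with the trimmed mean of M-values and put on a log2 scale with a prior count of 2. The condition means gave 2 heat differences, Hot minus Control and Hot-Dry minus Dry, and the less negative of the 2 was the value by which genes were ranked. Of 17078 genes in the table, 8756 averaged at least 5 cpm and were ranked, and the 100 lowest are the members. The members were thus chosen by these measured values, so both heat differences are given as a description without a test. Below, the members were tested only for drought, families and the heat difference among families. Heat tests are given for listed reproduction genes that are not members.

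All beetles were of the strain Cro1, and each library came from the whole body of 1 reproducing female, as the labels state, with an age of 8 weeks in the labels and of 11 weeks in the study's text. Treatment began at the egg stage and lasted for life, and full sibs of a family were split between the conditions, with the females of 1 family and condition in the same vial. There were 45 Hot females (37°C, 70% r.h.), 47 Control females (33°C, 70% r.h.), 43 Hot-Dry females (37°C, 30% r.h.) and 48 Dry females (33°C, 30% r.h.), from 12 families read from the first number in each female's name. Each family had 3 or 4 females in each condition. The counts per female ranged from 4873334 to 15533288, and every library had a correlation of at least 0.944 with the mean of the others of its condition. The fat-body products Vg1 and Vg2 and the ovary and germ-line markers Vasa, Piwi, Spindle E and the vitellogenin receptor had counts in every female, with 296 to 263105 cpm for Vg1 and 30.6 to 138 cpm for Vasa. In whole bodies, fewer cells of a type and less RNA per cell cannot be told apart.

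As background, a reproducing female insect makes vitellogenin, the precursor of yolk protein, in the fat body and releases it into the haemolymph. Growing oocytes take it up through the vitellogenin receptor. In *T. castaneum* the synthesis of vitellogenin depends on juvenile hormone and on insulin signalling, so that its RNA is among the most abundant of an egg-laying female. Vg2 (TC010839) is the only member among the 56 reproduction genes that the study listed. Few other members carry an annotation in the sources used here. TC014032 is listed under active ion transmembrane transporter activity, TC014143 under protein serine/threonine kinase activity, and TC004541 and TC030713 under protein binding. TC004842, TC011244 and TC011392 are listed as intracellular. The remaining members are therefore described by identifier, level and behaviour only.

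The heat differences of the members spanned a wide range. Hot minus Control lay between -2.88 and -0.46 on the log2 scale with a median of -0.69, and Hot-Dry minus Dry lay between -3.38 and -0.47 with a median of -0.87. The value used for ranking was below -1 in 26 members and below -2 in 6. Over all genes tested both medians were -0.01. In 72 members the difference was more negative at 30% r.h. than at 70% r.h., by more than 0.5 in 20 of them, and TC006697 was the 1 member in which it was more negative at 70% r.h. by over 0.5. The limit of the list fell within a dense field of genes. TC014813, TC011244 and TC014816 were the last members, at -0.47, -0.47 and -0.46, and TC009653, TC014886 and TC016333 were the first genes outside it, at -0.46 each.

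**Figure D1:**
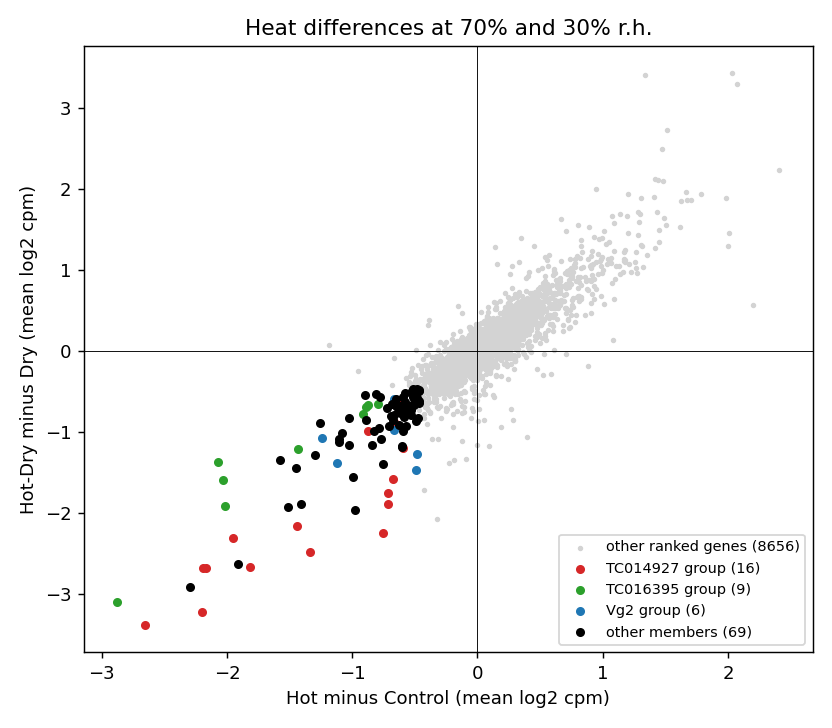
Mean log2 cpm of Hot minus Control (horizontal axis, 70% r.h.) against Hot-Dry minus Dry (vertical axis, 30% r.h.) for each of the 8756 ranked genes. The 100 members fill the lower left corner, down to -2.88 and -3.38, with the TC014927 group (16 genes), the TC016395 group (9 genes) and the Vg2 group (6 genes) in colour.

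TC016395 had the lowest ranking value. Its level had a median of 0.872 cpm in Hot (range 0 to 18.8) and 6.96 cpm in Control (0 to 56.5), and a median of 0.651 cpm in Hot-Dry (0 to 4.64) and 7.23 cpm in Dry (0.292 to 32.3). The mean log2 differences were -2.88 and -3.10. All 43 Hot-Dry females were below the Dry median and 43 of 45 Hot females were below the Control median, although the ranges overlapped. The gene was at 0 counts in 10 Hot females and 1 Control female, and in 10 Hot-Dry females and 0 Dry females, where 3 counts correspond to about 0.3 cpm, so its lowest values carry a large counting error.

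The second lowest member, TC014927, was an abundant transcript with another kind of distribution. Its median was 1379 cpm in Hot and 2928 cpm in Control, and 1135 cpm in Hot-Dry and 3029 cpm in Dry. The highest female had 8749 cpm in Hot and 8195 cpm in Control, whereas the lowest had 0.568 cpm in Hot and 1.94 cpm in Control. The lowest females had 0.287 cpm in Hot-Dry and 1.27 cpm in Dry. Levels in each condition thus covered more than 3 powers of 10, and most of the mean differences of -2.65 and -3.38 lay at the low end. At the 90th percentile of females the differences were only -0.51 and -0.49, and at the 10th percentile they were -7.42 and -8.26.

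Other members had no low tail, and TC011876 shifted as a whole, with little spread. TC011876 had a mean of 67.4 ± 8.5 cpm in Hot (SD, n = 45) and 93.8 ± 15.2 cpm in Control (SD, n = 47). It had 68.9 ± 11.2 cpm in Hot-Dry (SD, n = 43) and 95.9 ± 13.5 cpm in Dry (SD, n = 48). All 45 Hot females lay below the Control median and 42 of 43 Hot-Dry females below the Dry median, although the log2 differences were just -0.47 and -0.48. TC005500 had a median of 11.6 cpm in Hot and 18.6 cpm in Control, and 11.8 cpm in Hot-Dry and 20.8 cpm in Dry, with 45 of 45 and 42 of 43 females below these medians. In TC005500 the difference of Hot minus Control was -0.29 at the 10th percentile of females and -0.95 at the 90th percentile. That of Hot-Dry minus Dry was -0.83 and -0.67. In both genes small differences were carried by nearly every female.

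**Figure D2:**
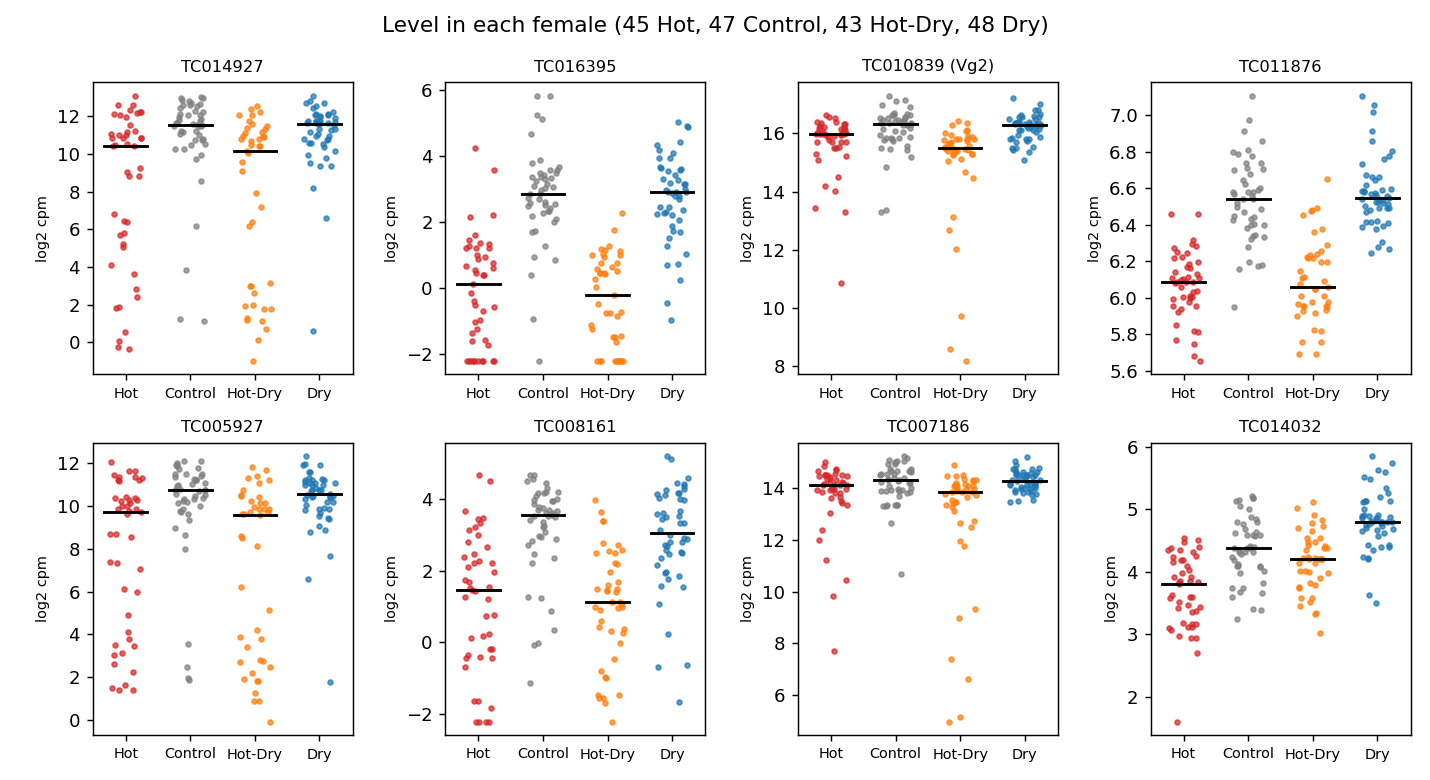
Level of 8 members in each female, as log2 cpm on the vertical axis (each panel has its own scale), with points for females and a bar for the median of the condition. TC014927 and TC005927 have a low tail of Hot and Hot-Dry females, with levels in Hot of TC014927 from 0.568 to 8749 cpm, while TC011876 shifts as a whole, with all 45 Hot females below the Control median.

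The members differed along this line. A level under 10% of the Control median was taken as low. In 50 members no female was low in any condition, and in 32 members at least 5 Hot or at least 5 Hot-Dry females were low. The median of all 100 members at the 90th percentile of females was -0.52 for Hot minus Control and -0.68 for Hot-Dry minus Dry, and at the 10th percentile it was -0.89 and -0.80. The ranges of Hot and Control females, and of Hot-Dry and Dry females, overlapped in all 100 members. A median member had 37 of 45 Hot females below the Control median, with 25 in the lowest case, and 37 of 43 Hot-Dry females below the Dry median, with 28 in the lowest case.

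The number of families that shared the falls varied among the members, as read from means of 3 or 4 females. In 18 members the difference was negative in all 12 families at both humidities, and in 51 members it was negative at both humidities in at least 10 families. TC016395, TC008162, TC015476 and TC011876 were among the 18. The smallest number was 4 families. These counts follow in part from the choice of the members, since the same females gave the condition means. To read the heat difference in females that had no part in the choice, the 100 genes were chosen again 12 times, each time without 1 family. Between 88 and 94 of the 100 were members. In the family left out, between 57 and 87 of these 100 genes were lower at both humidities (median 73), against 24.9% to 43.9% of all ranked genes. The median difference of the chosen genes in the family left out was negative in 12 of 12 families, at -0.97 to -0.44 for Hot minus Control and at -1.64 to -0.27 for Hot-Dry minus Dry. That of all ranked genes lay between -0.05 and 0.01 in both.

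A few members held a large share of all RNA. The 100 members together took 9.77% ± 3.27 of the counts in Hot (SD, n = 45) and 13.0% ± 3.01 in Control (SD, n = 47), and 8.09% ± 3.32 in Hot-Dry (SD, n = 43) and 12.9% ± 1.81 in Dry (SD, n = 48). Most of this came from Vg2, TC007186 and TC007776, with 8.61% in Hot and 11.1% in Control, and 7.04% in Hot-Dry and 11.01% in Dry. The other 97 members took 1.16% in Hot and 1.99% in Control, and 1.05% in Hot-Dry and 1.85% in Dry. Since cpm are relative to all counts of a library, a change in so large a share bears on every other gene before scaling. The median difference of all genes tested moved by at most 0.012 between the scaling methods tried. Each of these methods centres most genes, so this median cannot show how far the share bears on other genes.

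Vg2, which encodes a yolk protein precursor, ranked 91st among the members. It had a mean of 59488 ± 23587 cpm in Hot (SD, n = 45) and 79222 ± 31624 cpm in Control (SD, n = 47). The means were 44935 ± 21675 cpm in Hot-Dry (SD, n = 43) and 78211 ± 23361 cpm in Dry (SD, n = 48). The means of log2 cpm, which the ranking used, differed by -0.48 and -1.27, whereas edgeR's log2 fold changes, which rest on mean counts, were -0.41 and -0.80. The lowest Hot-Dry female had 290 cpm and the lowest Dry female 35091 cpm. A level under 10% of the Control median occurred in 5 Hot-Dry females, in 1 Hot female and in 0 Control and 0 Dry females. The spread was therefore widest in Hot-Dry, where the SD of log2 cpm was 1.90, against 0.44 in Dry.

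Of the other 55 listed reproduction genes that were tested, 19 were lower and 0 were higher in Hot than in Control, where edgeR's quasi-likelihood test called 12.2% of all genes lower and 12.9% higher. In Hot-Dry against Dry, 27 were lower and 1 was higher, against 15.8% and 16.5% of all genes. The study took the list from earlier work on reproduction in this species, and its direction in these samples was known beforehand here. Its 5 other vitellogenin-related genes ranked just outside the members, at 156 to 316 of 8756. On edgeR's scale Vg1 (TC013602), the second yolk precursor, had log2 fold changes of -0.31 ± 0.17 (SE) in Hot (adjusted p = 0.19) and -0.66 ± 0.17 in Hot-Dry against Dry (adjusted p = 0.0014). The vitellogenin receptor VgR (TC008595) fell by 0.34 ± 0.06 in Hot (adjusted p = 6.2e-06 by edgeR) and by 0.44 ± 0.06 in Hot-Dry against Dry. These heat tests took single females as units, although females of 1 family and condition shared a vial.

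Which members vary together was read from the correlation of their log2 cpm among females after the mean of each family in each condition was subtracted. This removes differences between the means of families and conditions, but not differences in spread, so conditions with a wider spread weigh more in r. No p is given, since all values come from the same libraries. Over all 4950 pairs of members the median r was 0.05. Average-linkage clustering at r = 0.5 put 57 members in 13 groups and left 43 alone. None of the members had an r beyond -0.15 or 0.14 with log2 library size.

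**Figure D3:**
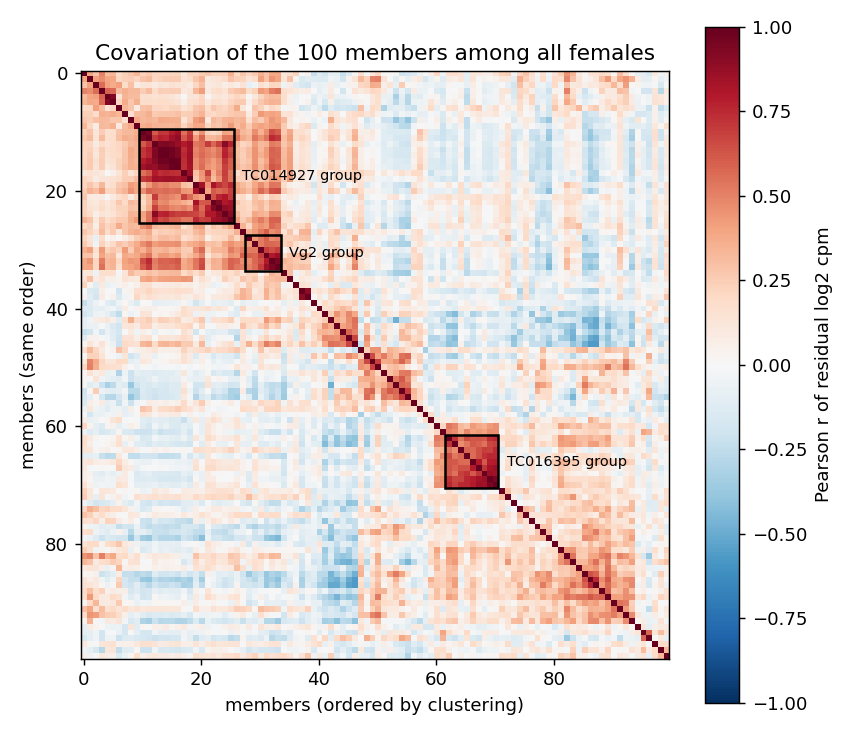
Pearson r between the 100 members over all females, after removal of the mean of each family in each condition, with members on both axes in the same order and red for positive r. Boxes mark the TC014927 group (median r 0.66), the Vg2 group (0.58) and the TC016395 group (0.68).

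The largest group held 16 genes and is named here after TC014927. Besides it, TC005927, TC008656, TC014928, TC008655 and TC006226 were its members with the lowest ranking values. The median r within the group was 0.66, and it was 0.74 in Hot, 0.56 in Control, 0.66 in Hot-Dry and 0.51 in Dry. TC005927 and TC006226 had an r of 0.99, and TC014927 and TC014928 an r of 0.98. These 16 genes include 6 of the 10 members with the lowest ranking values.

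All 6 of these genes had the low tail of TC014927. TC005927 had a median of 834 cpm in Hot (2.40 to 4225) and 1707 cpm in Control (3.46 to 4417), and 773 cpm in Hot-Dry (0.736 to 3633) and 1486 cpm in Dry (3.23 to 5092). TC008656 had a median of 354 cpm in Hot (0.178 to 3179) and 969 cpm in Control (0 to 3708), and 173 cpm in Hot-Dry (0 to 2185) and 755 cpm in Dry (0.0977 to 2361). TC008655 had a median of 1141 cpm in Hot (0.568 to 5639) and 2579 cpm in Control (0.540 to 7336), and 751 cpm in Hot-Dry (0.191 to 4506) and 2023 cpm in Dry (0.391 to 4742). Each of these genes was near 0 in some Control and Dry females too, so low levels also occurred at 33°C, but in fewer females.

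Low levels of these genes occurred in the same females, which follows in part from grouping them by their correlation among these females. The members were also chosen for falls of the mean under heat, so the counts below are a description only. At least 8 of the 16 genes were low in 11 of 45 Hot females (24.4%) and in 2 of 47 Control females (4.26%), and in 14 of 43 Hot-Dry females (32.6%) and in 1 of 48 Dry females (2.08%). None of the 16 was low in 19 Hot, 34 Control, 13 Hot-Dry and 37 Dry females. TC010836, TC013892 and TC004705 belonged to the group without any low female. TC010836 had a median of 42.6 cpm in Hot (9.71 to 120) and 86.3 cpm in Control (20.6 to 145), and 32.1 cpm in Hot-Dry (11.6 to 103) and 69.9 cpm in Dry (23.6 to 144).

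**Figure D4:**
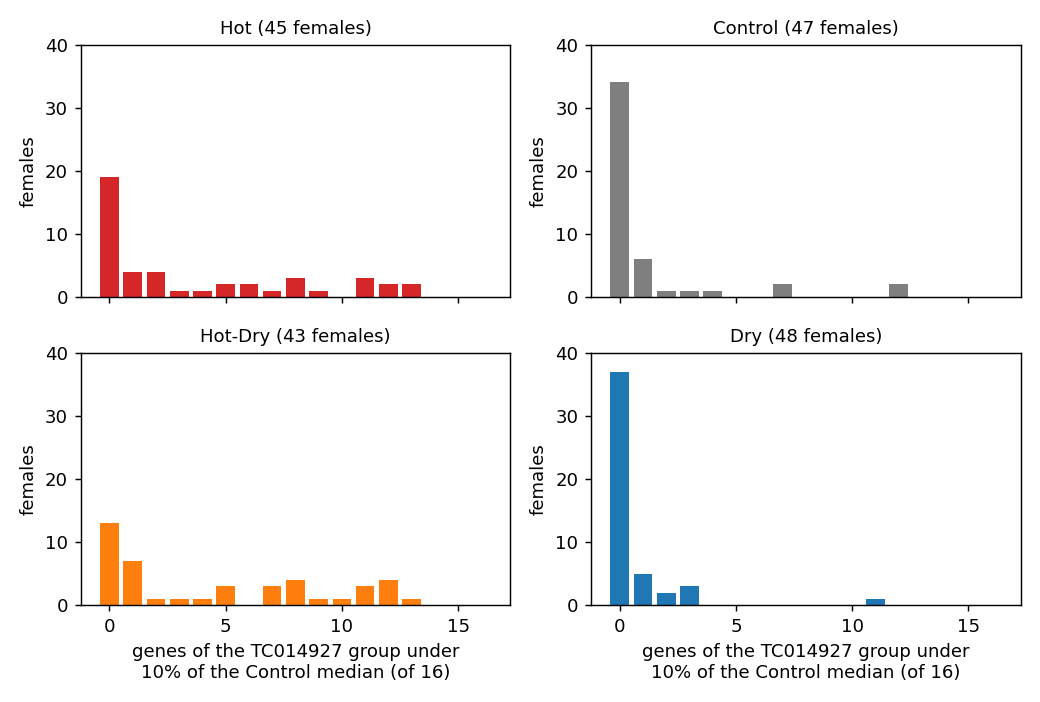
Number of females (vertical axis) by how many of the 16 genes of the TC014927 group were under 10% of their Control median (horizontal axis), in a panel for each condition. At least 8 genes were low in 11 of 45 Hot and 2 of 47 Control females, and in 14 of 43 Hot-Dry and 1 of 48 Dry females. The genes were chosen for falls of the mean under heat and grouped by correlation among these females, so the counts are a description only.

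The Vg2 group held 6 genes, with TC007186, TC007776, TC006658, TC007263 and TC015449. Its median r was 0.49 in Hot, 0.43 in Control, 0.75 in Hot-Dry and 0.36 in Dry, so that the group was tightest in Hot-Dry. TC007186 had an r of 0.94 with Vg2. The median of TC007186 was 18003 cpm in Hot (208 to 33533) and 20326 cpm in Control (1643 to 38774), and 14824 cpm in Hot-Dry (30.9 to 30995) and 20164 cpm in Dry (11277 to 37687). TC007776 had a median of 10596 cpm in Hot (2600 to 24790) and 17658 cpm in Control (917 to 29588), and 12161 cpm in Hot-Dry (18.1 to 21062) and 14760 cpm in Dry (7173 to 23124). In TC007186, as in Vg2, the largest differences between conditions were at the bottom of the range.

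Among females, the mean of the Vg2 group and that of the TC014927 group had an r of 0.61, and their r with the mean of the TC016395 group was -0.02 and -0.05. Of the listed reproduction genes that are not members, Vg1 had the highest r with the Vg2 group, at 0.92. It was followed by a juvenile hormone epoxide hydrolase (JHEH, TC003437) at 0.86 and a second JHEH (TC002992) at 0.74, enzymes that break down juvenile hormone. Among the ovary and germ-line markers, Vasa had an r of 0.54, against 0.26 for Piwi, 0.13 for Spindle E and 0.11 for VgR. With the TC014927 group Vg1 had an r of 0.59, and the putative ovarian gene TC003416 also had an r of 0.59. All of these correlations come from the same libraries, the few females with very low Vg2 included. Neither JHEH was called in the heat tests. On edgeR's scale TC003437 had log2 fold changes of 0.02 in Hot and 0.16 in Hot-Dry against Dry, and TC002992 had 0.07 and 0.18.

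The TC016395 group held 9 genes, among them TC008161, TC008162, TC006697, TC011392 and TC014821. Its r with Vg2 lay between -0.24 and 0.16. TC008162 had a median of 23.5 cpm in Hot (0.605 to 290) and 98.6 cpm in Control (1.91 to 313), and 41.9 cpm in Hot-Dry (1.38 to 196) and 96.9 cpm in Dry (4.48 to 326). TC011392 had a median of 44.6 cpm in Hot (9.88 to 258) and 147 cpm in Control (15.0 to 315), and 63.7 cpm in Hot-Dry (11.6 to 257) and 140 cpm in Dry (24.4 to 351). In 8 of the 9 genes the difference was larger at 70% r.h. than at 30% r.h., the reverse of most members, with TC016395 as the exception. The means of TC006697 differed by -2.07 in Hot and by -1.38 in Hot-Dry.

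Drought was tested on the members as the mean of Dry minus Control and Hot-Dry minus Hot, a contrast orthogonal to both heat differences. edgeR's quasi-likelihood test, adjusted over all 12113 genes tested, called 5 members. Of these, 2 were higher and 3 were lower in drought, where 2.01% of all genes tested were called higher and 2.84% lower. Among the ranked genes, from which the members came, these shares were 2.20% and 2.95%, so that the members were called about as often as other genes. The median log2 fold change of the 100 members was -0.04, and 40 of them had a positive one. Without regard to sign, the median was 0.12 in the members, 0.04 in the ranked genes and 0.05 in all genes tested. The members' median SE was also 0.12, so this comparison does not show a larger response to drought.

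TC014032, the gene listed as an ion transporter, was higher in drought and lower in heat. Its median was 27.7 cpm in Dry (11.1 to 57.5) and 20.5 cpm in Control (9.29 to 37.1), and 18.2 cpm in Hot-Dry (7.92 to 34.5) and 13.8 cpm in Hot (2.81 to 23.2). The pooled log2 fold change was 0.47 ± 0.07 (SE, 95% interval 0.32 to 0.61, adjusted p = 1.6e-06 by edgeR), with a positive difference in 11 of 12 families. This was the only member that was also called when counts were summed per family and condition, with the family as a block, so that females of a vial counted once.

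The other 4 calls had larger adjusted p-values. TC015988 rose by 0.76 ± 0.24 (adjusted p = 0.044 by edgeR), TC013280 fell by 0.59 ± 0.15 (adjusted p = 0.0073), TC007204 fell by 0.36 ± 0.11 (adjusted p = 0.032) and TC010836 fell by 0.34 ± 0.11 (adjusted p = 0.0495). With the summed counts their adjusted p lay between 0.17 and 0.43. The call of TC015988 was lost when any 1 of 10 families was left out, that of TC010836 when any 1 of 7 was, that of TC007204 when any 1 of 6 was and that of TC013280 without family 348 (adjusted p = 0.068). TC013280 had a negative drought difference in 10 of 12 families. In all, 1 member was called without family 348, 2 were called without family 245, 638 or 799, and 3 without family 1005 or 710.

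Some members stood side by side. In the order of the table, whose meaning the sources do not give, 11 pairs of members were in adjacent rows. Of the 200 rows beside a member, 11% were members, against 0.586% of all rows. The pairs had a median r of 0.83 among females. Both genes of TC005927 and TC006226, TC014928 and TC014927, and TC008656 and TC008655 were in the TC014927 group. TC008161 and TC008162 were in the TC016395 group, and TC005274 and TC005273 (r of 0.90) and TC015984 and TC015988 (r of 0.92) varied together. How reads that match several genes were counted is not stated, so levels of near-identical neighbours could not be separated with certainty.

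Adjacent genes did not always respond alike. TC014033, beside the transporter-listed TC014032, had a drought log2 fold change of -0.33 ± 0.12 (adjusted p = 0.095 by edgeR), against 0.47 for TC014032, and the pair had an r of 0.33. TC013280 fell by 0.59 in drought while TC013279 had -0.07 ± 0.15 (adjusted p = 0.89). These differences within pairs were not tested.

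Families differed in the level of most members. In the test of family on the 48 sums per family and condition, edgeR called 68 of 100 members, against 77.0% of all genes tested and 80.9% of the ranked genes. The distance between the lowest and highest of the 12 family means had a median of 1.56 log2 units over the members. It was widest for TC011271, at 6.68, between family 1005, with a median of 0.854 cpm, and family 799, with a median of 131 cpm (F = 24.97). TC012230, TC005750, TC001679 and TC006658 had the next smallest p, with F between 10.1 and 13.1. TC012230 and TC005750 both had their lowest mean in family 799 and their highest in family 496.

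The covarying groups were unlike in how many of their genes were called for family. Only 2 of the 16 genes of the TC014927 group were called for family, with a median F of 1.04, whereas 8 of the 9 genes of the TC016395 group were called, with a median F of 6.54. In 7 of these 9 genes family 863 had the lowest mean. TC008162 had family medians of 20.9 cpm in family 863, 18.3 cpm in family 496 and 158 cpm in family 348. TC011876 had the narrowest spread of all members, 0.26 log2 units between its lowest and highest family. The distance between the lowest and highest family mean was 0.72 to 3.05 log2 units in the genes of the TC014927 group. In those of the TC016395 group it was 0.90 to 3.44. The spread among females was wider in the TC014927 group, with a median SD of log2 cpm in Hot of 2.56 against 1.35. The fewer calls in the TC014927 group therefore do not show that families were alike in its genes. The difference between the groups was not tested, and genes of a group are not independent of each other.

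The heat difference varied among families in 5 members by the test of family and temperature (edgeR, 48 sums), against a background of 3.72% of all genes tested and 4.74% of the ranked genes. TC010234 had a mean heat difference of -3.26 in family 1077 and 0.15 in family 348 (adjusted p = 0.013). TC011696, which varied together with TC010234, had its extremes in the same families, at -1.97 in family 1077 and 0.91 in family 348 (adjusted p = 0.043). TC001679 ranged from -1.77 in family 1077 to 0.01 in family 710 (adjusted p = 0.030). TC015390 ranged from -3.89 in family 799 to -0.19 in family 293 (adjusted p = 0.028), and TC015476 from -4.33 in family 799 to -1.19 in family 293 (adjusted p = 0.037). In TC015476 all 12 families were thus lower under heat, and it was the size of the fall that varied. None of the 5 was called without family 1077 (adjusted p of 0.16 to 0.58) or without family 348 (0.10 to 0.24), and without family 293 or 710 only 2 members were called.

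**Figure D5:**
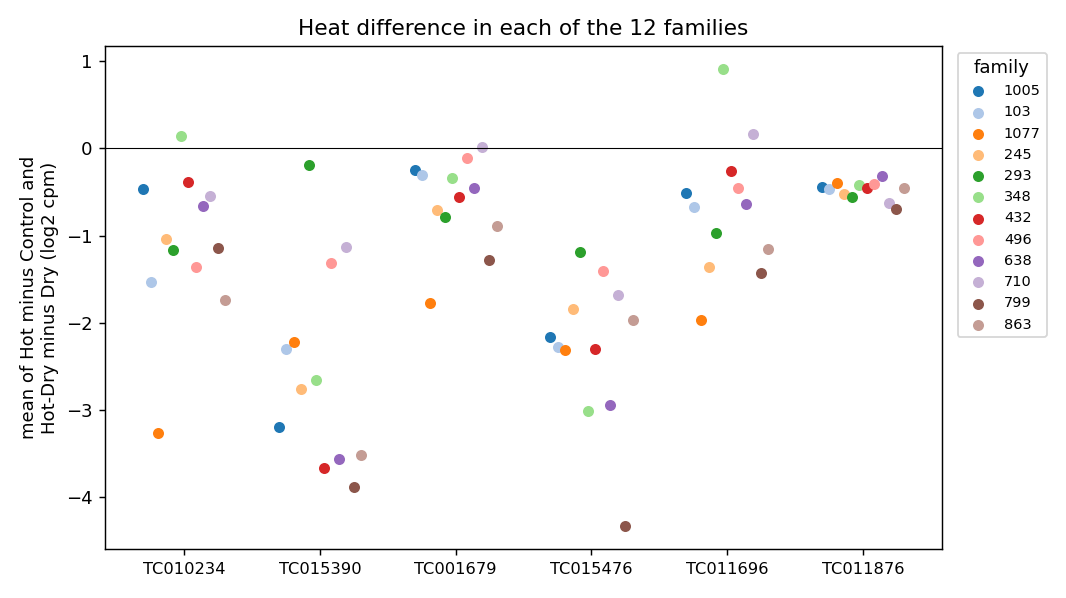
Mean of Hot minus Control and Hot-Dry minus Dry (vertical axis, log2 cpm) in each of the 12 families (coloured points) for the 5 members called for differences of the heat response among families, and for TC011876, which had the narrowest spread of family means. TC010234 ranges from -3.26 to 0.15, whereas TC011876 ranges from -0.70 to -0.31.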

How the data were processed

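An mRNA library was sequenced from the whole body of each female. Per the methods, the authors trimmed the reads, mapped them with STAR (version 2.5 in the submitters' processing notes) and counted them per gene with featureCounts. They deposited counts, whole numbers of reads per gene without normalization. Strand use and multiply mapped reads are not given in the sources used here.

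The members and lists were chosen with earlier results of these data known. The tests took the 12113 genes that exceeded 0.5 cpm in 5 or more females, with TMM factors of 0.710 to 1.29. At the median depth 3 counts are about 0.3 cpm, and such floors cover counting error only. The analysis used R 4.3.3 and edgeR 4.0.16 (quasi-likelihood, Benjamini-Hochberg adjustment, calls at 0.05), with limma 3.58.1 and DESeq2 1.42.0 as alternatives, together with other scalings, filters, prior counts, blocks and leaving out families. Each SE was computed from F and the size of the log2 fold change. Drought, and heat for the listed reproduction genes that are not members, were tested on females. Family and family by temperature were tested on sums per family and condition. The procedures were tested on simulated counts drawn independently for each female, which cannot show how shared vials bear on the tests on females. Replicates are females, and those of a vial are not independent.

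Members named were the 10 lowest, those at the limit, the 5 most abundant, those called in a test, listed by the study or in adjacent rows, and those leading the largest groups. TC011876, TC005500, TC004705, TC013892, TC014143, TC004541, TC030713 and TC004842 were named after their values were seen. Gene family lists, protein and promoter sequences were not used here, since no reference at hand pairs these identifiers with names.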

Additional observations from a re-analysis of the deposited data

Results flagged for a closer look

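A difference among families in the same heat contrast drew attention to 5 members. By edgeR's test of family and temperature the adjusted p was 0.0125 for TC010234, 0.0285 for TC015390, 0.0301 for TC001679, 0.0370 for TC015476 and 0.0426 for TC011696. This test also called 3.72% of all genes tested and 4.74% of the ranked genes. The members were thus called about as often as other genes. None of the 5 was called without family 1077 or without family 348. Family 1077 had the most negative heat difference in TC010234, TC001679 and TC011696, and family 799 in TC015390 and TC015476. TC010234 and TC011696 belong to 1 covarying group of 3 genes, and TC015390 and TC015476 are low transcripts, with medians of 0.433 and 3.18 cpm in Hot and 4.29 and 11.6 cpm in Control.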

How the results depend on the processing

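The list itself moved little with scaling, prior count and families. Relative log expression and upper-quartile scaling kept all 100 members, TMM factors from all genes kept 98, prior counts of 0.5 and 5 kept 97 each, and leaving out 1 family kept 88 to 94. It moved more with the level required: 68 members remained with a mean of at least 1 cpm, 72 with at least 10 cpm, and 80 with condition medians in place of means. The 5 drought calls among members became 3 without a filter beyond 1 count, 3 with limma-voom, 3 with log2 library size as covariate, 10 with the family as a block and 1 with sums per family and condition. Over all genes tested the 587 calls became 949 and 172 in the last 2 settings. With 1 family left out, between 1 and 7 members were called. The numbers in the names do not pair the females, since only 193 of 261 same-numbered pairs from different conditions had an r over 0.1 and females of 1 family with other numbers were as alike (mean r of 0.196 against 0.191). With these numbers as a replicate block, 6 members and 811 genes were called. The 5 calls for families in the heat response became 3 with limma-voom, 17 with DESeq2 and 49 with females in place of sums, and over all genes tested 451 became 468, 1706 and 6117, against 279 with upper-quartile scaling. With 1 family left out, between 0 and 7 members were called. No member or other gene was called by edgeR without family 1077 or without family 348, where 14 and 17 members had an unadjusted p under 0.05. With all families 19 members had such a p, against 20.6% of all genes tested and 23.8% of the ranked genes. Between 48 and 82 members were called for family in the settings tried, against 68 in the main setting. That main setting called 77.0% of all genes tested and 80.9% of the ranked genes. The causes were not tested. Depth limits members near 0.3 cpm, such as TC016395 and TC015390.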
